A study of Saccharomyces cerevisiae with 15 samples.

Results

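The retrograde response genes described here are 10 genes of Saccharomyces cerevisiae, 4 regulators (RTG1, RTG2, RTG3 and MKS1) and 6 genes named as their targets (CIT1, CIT2, ACO1, IDH1, IDH2 and DLD3), out of 5656 genes that had a probe set naming a single gene. They were taken by name from the platform annotation, and each had exactly 1 such probe set, so no choice between probe sets was needed. All 10 passed the filter on dim probe sets and were tested. Messenger RNA of the haploid, prototrophic MATa strain CEN.PK113-7D was hybridised to single-colour Affymetrix YG_S98 arrays after steady-state growth in aerobic, glucose-limited chemostats. The 5 groups differed in the amino acid that supplied all nitrogen, and each held 3 arrays, 15 in all. The amino acid was L-asparagine (5.0 g/l), L-proline (8.8 g/l), L-leucine (10.0 g/l), L-phenylalanine (5.0 g/l) or L-methionine (11.3 g/l), so the groups differed in concentration as well as in compound. All groups shared 7.5 g/l glucose in the feed, 6.6 g/l potassium sulfate and pH 5.0, and were grown at 30 °C and diluted at 0.10 per hour.

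The retrograde response is a route from the state of the mitochondria to transcription in the nucleus. RTG1 and RTG3 are helix-loop-helix factors that bind DNA as a pair, MKS1 is a negative regulator that holds RTG3 outside the nucleus, and RTG2 is a cytoplasmic protein that binds MKS1 and relieves this block. The targets make citrate, isocitrate and 2-oxoglutarate, the carbon skeleton of glutamate, and the pathway is known in yeast both for its activity in cells without respiration and for its sensitivity to the supply of glutamate and glutamine. Leucine, phenylalanine and methionine are used through a transamination in which 2-oxoglutarate commonly takes up the amino group. Asparagine is first deamidated, which does not exclude a later transamination, and proline is oxidised to glutamate. Whether these routes bear on the signals was not tested.

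Signals are linear, in arbitrary units and scaled by the authors to a nearly equal mean per array. A change in the share of a transcript and a change in messenger RNA per cell therefore cannot be told apart. The median signal of an array was 38.2 to 55.1, and the arrays' number limits the precision. The actin ratio, 3' signal over 5' signal, which rises as RNA degrades, lay between 1.59 and 3.64. Its mean was highest in the phenylalanine (2.81) and asparagine (2.77) groups, and it was 2.11 for leucine, 1.90 for proline and 1.76 for methionine. The same ratio for SPT15 ordered the groups otherwise, with the lowest mean for phenylalanine (2.99). It was 4.45 for asparagine, 4.35 for proline, 3.86 for leucine and 3.57 for methionine. The SPT15 ratio was not used as a covariate. The mean signal of the hybridisation controls was 807 for asparagine, 336 for proline, 483 for leucine, 907 for phenylalanine and 409.5 for methionine. Array 1 of phenylalanine was, per its deposited experiment file, a repeat run after scanner servicing. The 4 markers of a MATa cell had a summed signal of 1876 to 7117 per array and the 3 markers of a MATalpha cell one of 37.1 to 123 (37.1 to 45.1 with leucine and 73.5 to 123 with phenylalanine, the lowest and the highest source). Of the catabolic genes chosen as label checks, PUT1 and PUT2 were highest with proline and ARO9 and ARO10 with phenylalanine. The proline oxidase PUT1 had a mean of 1169 with proline, 641 with methionine and 73.9 with asparagine. The keto acid decarboxylase ARO10 had 1996 with phenylalanine, 1046 with leucine, 896 with methionine and 60.9 with asparagine. BAT2, chosen for leucine, was highest with methionine (1516, beside 1330 with leucine). No gene checked the asparagine or methionine label.

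The first comparison asked which members varied with the amino acid. In a moderated F test (limma) over the 5 groups, adjusted over all 7459 tested probe sets with a threshold of 0.05, 7 of the 10 members passed, which compares with 52.2% of all tested probe sets. All 6 targets passed, with adjusted p from 2.0e-09 for CIT2 to 6.1e-04 for CIT1. Of the regulators RTG3 passed (adjusted p = 0.027), while MKS1 (0.063), RTG1 (0.064) and RTG2 (0.47) did not. The source accounted for 97.9% of the variance of log2 signal of CIT2, 96.6% for IDH1, 96.1% for DLD3, 93.3% for IDH2, 85.4% for ACO1 and 83.2% for CIT1, against a median of 61.7% over all tested probe sets. For RTG2 it was 27.2%, for RTG1 50.4%, for RTG3 65.3% and for MKS1 66.8%.

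The targets were high with leucine, phenylalanine and methionine and low with asparagine and proline. For all 6 of them each of the 9 arrays of the first 3 sources lay above each of the 6 arrays of the other 2, an arrangement found for 2.2% of all tested probe sets and for 0 of the 4 regulators. This grouping of the sources was chosen with the values known, so the share is a description. The 6 targets also kept this arrangement under quantile normalization and once array medians were centred.

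CIT2 encodes the peroxisomal citrate synthase, which feeds the glyoxylate cycle and is the classical reporter of the retrograde response. Its signal was 197.1, 248.6 and 264.1 with asparagine, 249.5, 219.1 and 248.8 with proline, 1064.5, 1208.8 and 1284.3 with leucine, 1104.7, 1527.7 and 1743.0 with phenylalanine and 1181.3, 944.4 and 1101.3 with methionine. The asparagine and proline arrays overlapped, the leucine, phenylalanine and methionine arrays overlapped one another, and no array of one block reached the other. Against asparagine CIT2 rose 5.04-fold with leucine (log2 difference 2.33 ± 0.16, SE, adjusted p = 4.6e-08 by limma), 6.10-fold with phenylalanine (2.61 ± 0.16, adjusted p = 2.2e-08) and 4.56-fold with methionine (2.19 ± 0.16, adjusted p = 7.2e-08). Against proline the rises were 4.95-fold, 6.00-fold and 4.49-fold (adjusted p 4.5e-08, 2.6e-08 and 9.7e-08). Proline and asparagine themselves differed by a log2 value of 0.02, with a 95% interval from -0.32 to 0.37 (adjusted p = 0.95), which still allows a change of that size either way. A range between group means as wide as that of CIT2, 2.61 on the log2 scale, was reached by 3.70% of tested probe sets.

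DLD3 encodes a cytosolic enzyme that forms D-lactate from pyruvate and returns D-2-hydroxyglutarate to 2-oxoglutarate. Its signal was 45.0, 62.5 and 65.5 with asparagine and 71.9, 61.1 and 67.0 with proline. It was 318.4, 251.2 and 215.0 with leucine, 210.3, 226.5 and 289.7 with phenylalanine and 253.0, 190.6 and 229.5 with methionine. As for CIT2, the arrays fell into a low and a high block with no overlap between them and with overlap inside each. DLD3 rose 4.54-fold with leucine (log2 difference 2.18 ± 0.19, adjusted p = 3.9e-07), 4.22-fold with phenylalanine (2.08 ± 0.19, 1.2e-06) and 3.92-fold with methionine (1.97 ± 0.19, 1.1e-06) against asparagine. With proline it was 0.23 higher on the log2 scale than with asparagine (95% interval -0.17 to 0.62, adjusted p = 0.47), a difference that did not pass.

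**Figure D1:**
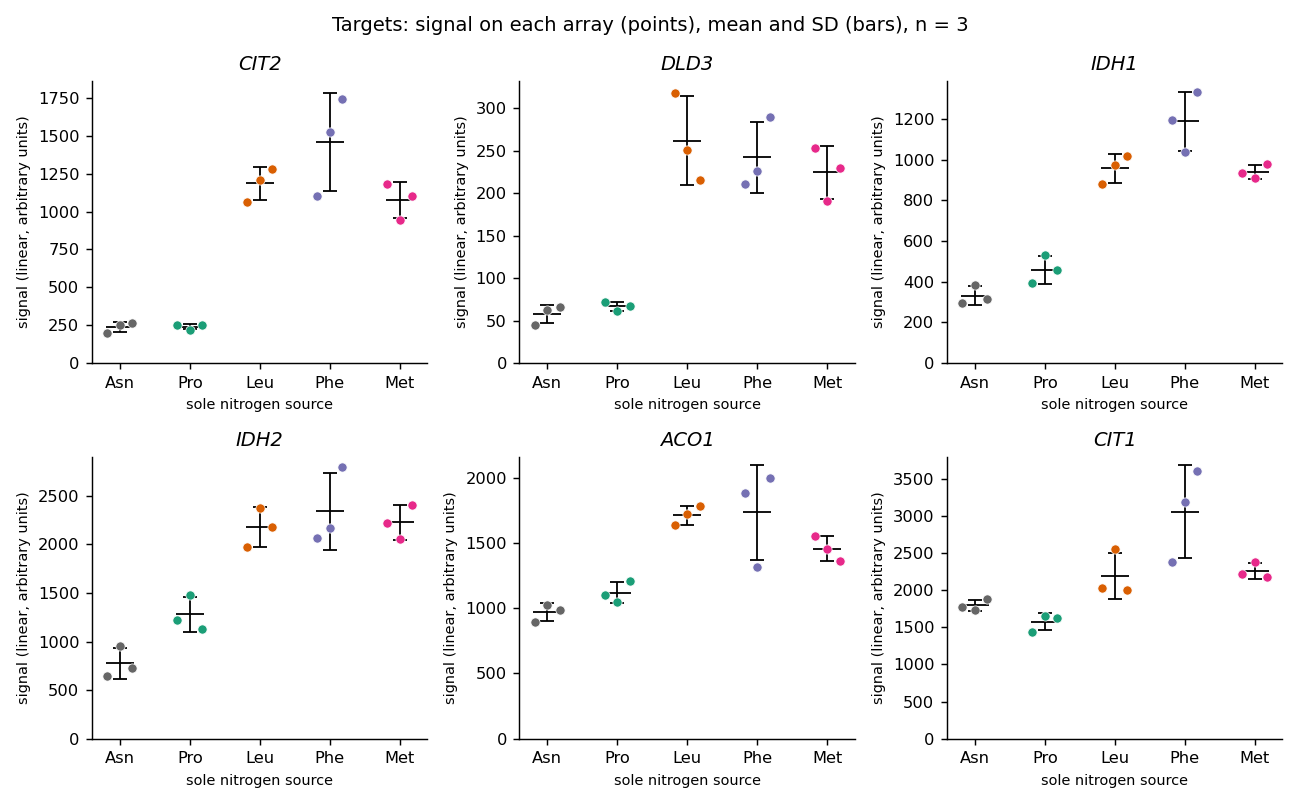
Signal of the 6 targets (vertical axes, linear, arbitrary units, starting at 0) by sole nitrogen source (horizontal axes). Points are single arrays, bars the mean and SD of 3 arrays. In every panel the leucine, phenylalanine and methionine arrays lie above the asparagine and proline arrays, and only the 2 subunits of isocitrate dehydrogenase, IDH1 and IDH2, pass the test between proline and asparagine.

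IDH1 and IDH2 are the subunits of the mitochondrial NAD-dependent isocitrate dehydrogenase, which makes 2-oxoglutarate. IDH1 had 294.1, 384.7 and 316.3 with asparagine, 392.7, 529.0 and 455.5 with proline, 880.0, 975.2 and 1017.5 with leucine, 1195.4, 1040.0 and 1330.7 with phenylalanine and 935.4, 909.6 and 976.3 with methionine. IDH2 had 649.9, 958.7 and 722.9 with asparagine, 1226.9, 1481.0 and 1134.2 with proline, 1975.0, 2379.1 and 2183.5 with leucine, 2066.0, 2166.1 and 2794.5 with phenylalanine and 2222.9, 2053.0 and 2409.5 with methionine. Proline held an intermediate place for both subunits, with all its arrays above asparagine and below the other 3 sources. Against asparagine IDH1 was 2.90-fold, 3.59-fold and 2.85-fold higher with leucine, phenylalanine and methionine (adjusted p 6.2e-07, 1.3e-07 and 6.7e-07) and IDH2 2.83-fold, 3.03-fold and 2.90-fold (3.7e-06, 3.2e-06 and 2.4e-06). With proline IDH2 was 1.66-fold higher than with asparagine (log2 difference 0.73 ± 0.16, 95% interval 0.40 to 1.06, adjusted p = 0.0077) and IDH1 1.38-fold (0.47 ± 0.14, adjusted p = 0.035).

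The IDH1 call with proline was lost without asparagine 1 (log2 difference 0.39, adjusted p = 0.13), asparagine 3 (0.44, 0.12), proline 2 (0.36, 0.15) or proline 3 (0.47, 0.076), and it was also lost with no variance trend and with the hybridisation control as a covariate (0.52, 0.11). That of IDH2 was kept without any 1 array. Neither passed with the actin ratio, which was lower with proline than with asparagine, as a covariate. Neither passed once the 4 arrays with the most ribosomal RNA signal were left out, which keeps only 1 array for proline. The part of RNA integrity in these results was not tested. Over the 15 arrays the log2 signals of the 2 subunits correlated at r = 0.97, and after the mean of each source was removed at r = 0.81, the highest of the 15 target pairs, which ranged from -0.06 to 0.81. Both genes of a pair were read on the same arrays, each with its own hybridisation and scaling, so the correlations are descriptions.

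ACO1, the mitochondrial aconitase that turns citrate into isocitrate, moved less. Its signal was 896.9, 1027.4 and 988.0 with asparagine, 1100.4, 1048.4 and 1206.2 with proline, 1634.4, 1717.9 and 1780.9 with leucine, 1883.8, 1317.2 and 2000.0 with phenylalanine and 1550.4, 1456.0 and 1359.7 with methionine. The second phenylalanine array stood low in its group; the group's SD was 365. ACO1 rose 1.76-fold with leucine (adjusted p = 3.8e-04), 1.76-fold with phenylalanine (5.5e-04) and 1.50-fold with methionine (0.0034) against asparagine. Methionine and proline differed by 0.38 on the log2 scale (95% interval 0.09 to 0.67, adjusted p = 0.056), which did not pass over all probe sets but did without phenylalanine 2 (adjusted p = 0.0088) or phenylalanine 3 (0.031), 2 arrays that enter only through the shared spread. It also passed with quantile normalization (adjusted p = 0.034).

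CIT1 encodes the mitochondrial citrate synthase, the entry enzyme of the tricarboxylic acid cycle. It had 1778.9, 1735.3 and 1879.8 with asparagine, 1442.6, 1655.7 and 1619.5 with proline, 2024.6, 2551.3 and 1997.8 with leucine, 2374.3, 3188.0 and 3608.8 with phenylalanine and 2213.9, 2383.9 and 2183.5 with methionine. Its proline arrays were the lowest of all and its phenylalanine arrays were spread the most. Against asparagine CIT1 passed with phenylalanine (1.68-fold, log2 difference 0.74 ± 0.14, adjusted p = 0.0013) and not with leucine (0.28, 95% interval -0.02 to 0.57, adjusted p = 0.19), methionine (0.33, 0.03 to 0.63, 0.073) or proline (-0.20, -0.49 to 0.10, 0.40). Against proline it was 1.92-fold higher with phenylalanine (adjusted p = 1.8e-04), 1.39-fold with leucine (0.026) and 1.44-fold with methionine (0.013). With quantile normalization CIT1 passed with leucine (0.41, adjusted p = 7.9e-04) and methionine (0.32, 0.0033) against asparagine too, and the methionine difference also passed without phenylalanine 1 (adjusted p = 0.026) or 3 (0.040). The leucine call against proline was lost without proline 1 (adjusted p = 0.11), proline 3 (0.050) or leucine 2 (0.12), and the methionine call without proline 1 (0.057) or methionine 2 (0.053).

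Counted by comparison, 5 of the 6 targets rose with leucine against asparagine, where 9.88% of all tested probe sets were higher. With phenylalanine all 6 rose (7.56% of all) and with methionine 5 (14.4%), CIT1 being the exception in the leucine and methionine comparisons. With proline 2 of 6 rose (4.6% of all). Against proline all 6 rose with leucine (11.1%) and with phenylalanine (8.14%), and 5 with methionine (10.6%), all but ACO1. The median log2 difference of the 6 targets against asparagine was 1.52, 1.72 and 1.52 with leucine, phenylalanine and methionine, beside -0.03, -0.16 and -0.09 for all tested probe sets, and with proline it was 0.21 beside -0.08. The 4 comparisons with asparagine share its 3 arrays, and those with proline share the proline arrays.

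**Figure D2:**
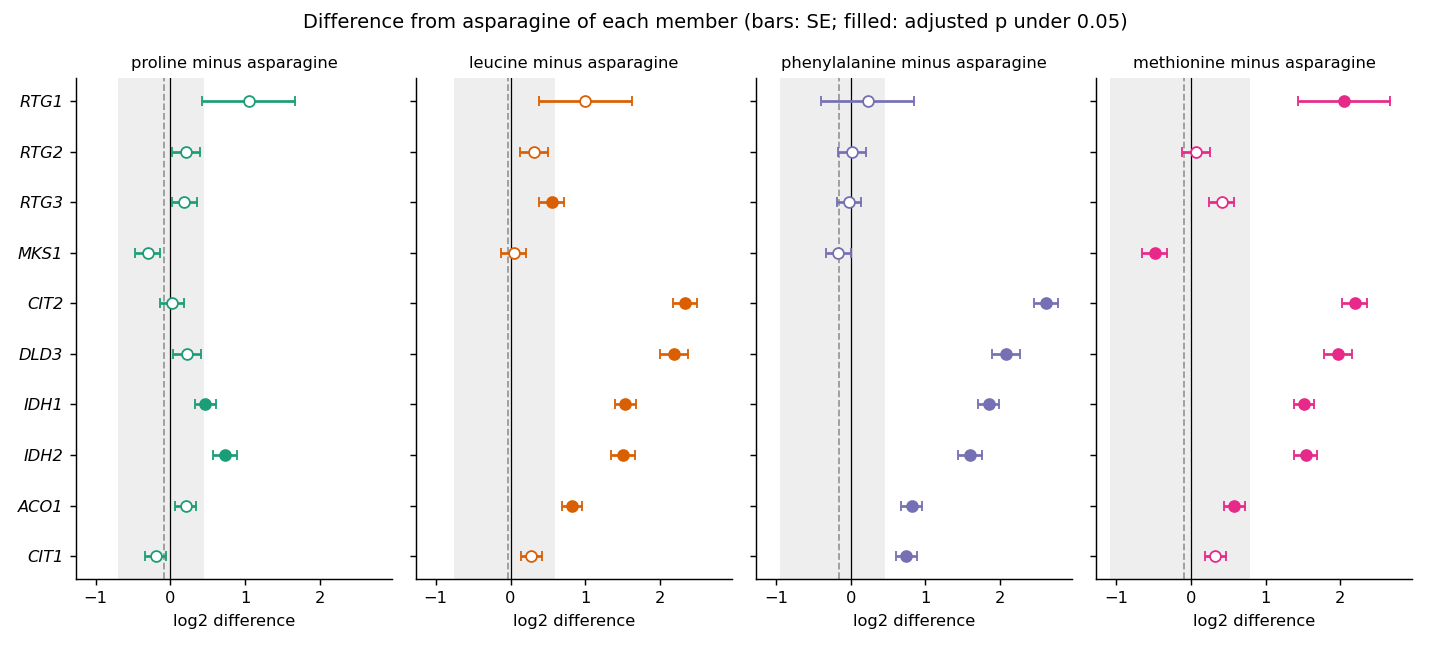
Log2 difference of each member from asparagine (horizontal axes) with its SE, by source. Filled points passed the adjusted p threshold of 0.05, the dashed line is the median and the grey band the 10th to 90th percentile of all tested probe sets. CIT2 and DLD3 lie near 2 and above with leucine, phenylalanine and methionine and near 0 with proline, whereas IDH2 stands at 0.73 with proline.

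The 15 calls of CIT2, DLD3, IDH1, IDH2 and ACO1 with leucine, phenylalanine and methionine against asparagine were all kept in each of 28 alternative fits, 15 of which left out 1 array, with adjusted p up to 0.045. Among these 3 sources the targets differed little. Phenylalanine against leucine gave 2 calls among the 10 members (12.8% of all probe sets were called either way), CIT1 higher (1.38-fold, adjusted p = 0.038) and RTG3 lower. Methionine against phenylalanine also gave 2 (22.3% of all), CIT1 lower (1.33-fold, adjusted p = 0.044) and RTG1 higher, and methionine against leucine gave 1 (18.8% of all), MKS1 lower. The 2 CIT1 calls were lost in many alternatives, among them quantile normalization, under which the differences were 0.085 and -0.17 on the log2 scale. Without 1 array the first was lost in 6 fits, without leucine 1 or 3, phenylalanine 2 or 3 or methionine 1 or 3 (adjusted p 0.051 to 0.14), and the second was kept only without leucine 2 (adjusted p = 0.033) or phenylalanine 1 (0.0047). For CIT2 the interval of phenylalanine minus leucine ran from -0.07 to 0.62, that of methionine minus leucine from -0.49 to 0.20 and that of methionine minus phenylalanine from -0.77 to -0.07 (adjusted p = 0.076), a difference that passed without phenylalanine 1 (-0.61, adjusted p = 0.012). For DLD3 the 3 intervals lay between -0.61 and 0.29.

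The order of the sources was thus not the same for each target. It ran from phenylalanine through leucine, methionine and proline to asparagine for CIT2 and IDH1, and only the step from methionine to proline passed for CIT2 (adjusted p = 9.7e-08), with the step from proline to asparagine passing too for IDH1. IDH2 had phenylalanine, methionine, leucine, proline and asparagine, with both lower steps passing. DLD3 and ACO1 had leucine, phenylalanine, methionine, proline and asparagine, with the step from methionine to proline passing for DLD3 (4.6e-06) and none for ACO1. CIT1 had phenylalanine, methionine, leucine, asparagine and proline, with the first step alone past the threshold.

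The regulators gave 6 calls over the 10 pairs of sources, none of them kept in all alternatives. Against asparagine 1 rose with leucine (9.88% of all tested probe sets), and 1 rose and 1 fell with methionine (14.4% and 24.2%). Phenylalanine against leucine, methionine against leucine and methionine against phenylalanine gave 1 each (12.8%, 18.8% and 22.3% of all were called either way). The other pairs gave none. So few calls cannot be told apart from that background. RTG2, the cytoplasmic protein that relieves the block by MKS1, had 139.9, 121.1 and 122.0 with asparagine, 154.4, 131.5 and 157.9 with proline, 171.8, 135.7 and 170.8 with leucine, 139.9, 134.8 and 114.7 with phenylalanine and 163.8, 93.4 and 154.9 with methionine. All 5 groups overlapped, and no pair of sources passed. The widest difference between means was 1.24-fold, and 93.3% of all tested probe sets had a range at least as wide.

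RTG3, one of the DNA-binding factors, had 97.2, 150.3 and 121.9 with asparagine, 145.3, 128.0 and 141.1 with proline, 186.8, 156.4 and 192.3 with leucine, 119.7, 103.2 and 137.4 with phenylalanine and 166.5, 142.0 and 177.4 with methionine. The leucine arrays lay above those of asparagine, proline and phenylalanine. It passed with leucine against asparagine (1.47-fold higher, log2 difference 0.55 ± 0.17, adjusted p = 0.026) and against phenylalanine (1.49-fold, adjusted p = 0.033), while methionine minus asparagine did not pass (0.41 ± 0.17, 0.060). The first call was lost without asparagine 1 (adjusted p = 0.13) or 3 (0.065) and without leucine 1 (0.083) or 3 (0.10), and with the actin ratio as a covariate. The second was lost with quantile normalization and with median centring, and without leucine 1 (adjusted p = 0.10) or 3 (0.12) or phenylalanine 1 (0.060) or 2 (0.071). RTG3 had 120.1 ± 17.1 with phenylalanine (SD, n = 3) beside 123 ± 26.6 with asparagine.

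MKS1, the negative regulator, had 48.3, 40.5 and 50.9 with asparagine, 32.9, 36.0 and 45.0 with proline, 50.0, 45.0 and 48.4 with leucine, 42.5, 45.8 and 36.3 with phenylalanine and 29.6, 34.7 and 35.6 with methionine. Methionine had the lowest mean, and its arrays overlapped those of proline alone. MKS1 was 1.40-fold lower with methionine than with asparagine (log2 difference -0.48 ± 0.17, adjusted p = 0.032) and 1.44-fold lower than with leucine (-0.52 ± 0.17, 0.039). The fall against asparagine was the single member call in that direction, in a comparison in which 24.2% of all tested probe sets were lower, and both calls were lost with quantile normalization and with median centring. Each was also lost without any of several single arrays, the first without asparagine 1 or 3 or methionine 1 or 2 (adjusted p 0.057 to 0.11) and the second without any leucine or methionine array (0.063 to 0.13).

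RTG1, the partner of RTG3, gave dim signals. They were 1.4, 10.6 and 12.8 with asparagine, 16.7, 20.0 and 7.2 with proline, 15.6, 10.5 and 13.2 with leucine, 9.2, 13.1 and 3.6 with phenylalanine and 23.4, 32.1 and 25.6 with methionine. The methionine arrays lay above all others, and the means with asparagine and phenylalanine were below 9.9, the 25th percentile of signal. The methionine mean was 2.73-fold that percentile, which is not a lower limit on the difference between sources. The fitted log2 difference of methionine from asparagine was 2.05 (interval 0.73 to 3.37, adjusted p = 0.017 by limma). From phenylalanine it was 1.82 (interval 0.50 to 3.14, adjusted p = 0.047). The first call was lost without asparagine 1, the array at 1.4 (log2 difference 1.20 in place of 2.05, adjusted p = 0.084), and without methionine 2 (1.92, 0.058), and the second in 10 of the 15 fits without 1 array (adjusted p 0.050 to 0.18), being kept without any asparagine array, proline 3 or phenylalanine 2. Both were lost with the actin ratio as a covariate, which was lowest with methionine, and its part in the result was not tested.

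**Figure D3:**
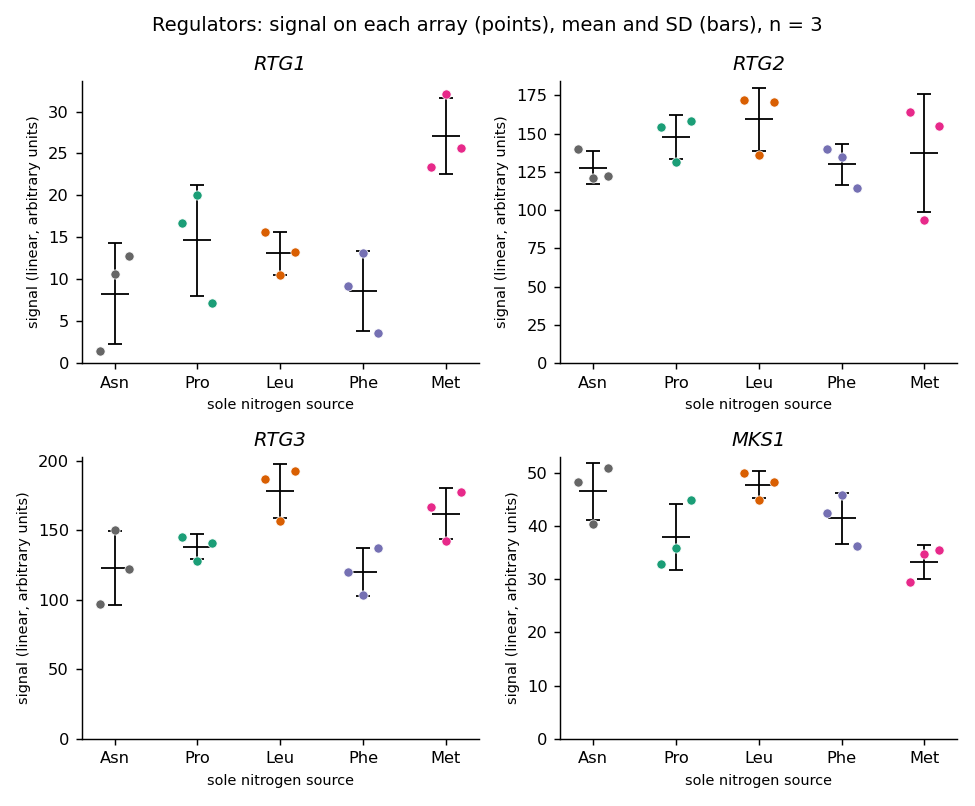
Signal of the 4 regulators (vertical axes, linear, arbitrary units, starting at 0) by sole nitrogen source. Points are single arrays, bars the mean and SD of 3 arrays. The groups of RTG2 overlap, RTG3 is highest with leucine, MKS1 is lowest with methionine, and RTG1 stays at or below 32.1 on all arrays.

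Of all tested probe sets, those lower than with asparagine made up 11% for leucine, 18.1% for phenylalanine, 24.2% for methionine and 8.7% for proline. Of the 7 proteins that act on MKS1 or belong to the target of rapamycin complex, none passed in the same direction with all of leucine, phenylalanine and methionine. Against asparagine 0 rose and 0 fell with leucine, 0 and 1 with phenylalanine, 1 and 2 with methionine and 0 and 1 with proline. For a list of 7 genes the falls were near those shares. The 1 rise with methionine was near its share too, as 14.4% of all tested probe sets rose there. BMH1, a 14-3-3 protein that binds MKS1, was 1.62-fold lower with methionine (from 1813 ± 229 to 1111 ± 44.0, adjusted p = 0.0014) and 1.39-fold lower with proline (to 1296 ± 31.4, 0.040). LST8, a subunit of the target of rapamycin complexes, was 1.39-fold lower with phenylalanine (from 374 ± 4.78 to 272 ± 53.7, adjusted p = 0.020) and 1.34-fold higher with methionine (503 ± 12.9, 0.024). KOG1, another subunit, had 99.5 ± 3.27 with asparagine and 119.9 ± 28.5 with phenylalanine and did not pass against asparagine in any comparison. It was 1.62-fold higher with phenylalanine than with proline (73.1 ± 10.3, adjusted p = 0.012).

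Other genes described as dependent on the RTG factors did not share 1 direction. PYC1, a cytosolic pyruvate carboxylase that supplies oxaloacetate, rose 2.45-fold with methionine (from 365 ± 23.8 to 895 ± 88.0, adjusted p = 1.8e-04) and 1.69-fold with leucine (to 621 ± 79.9, 0.014). With phenylalanine PYC1 had 521 ± 176 and did not pass. ATO3, a plasma membrane protein linked to ammonium export, was highest with asparagine (2093 ± 212) and 2.99-fold lower with methionine (701 ± 69.2, adjusted p = 3.0e-06), 1.84-fold lower with leucine (0.0010) and 1.69-fold lower with phenylalanine (0.0039).

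The rest of the tricarboxylic acid cycle was counted over 13 measured genes of 14 listed. Against asparagine 5 rose with leucine, 11 with phenylalanine, 9 with methionine and 3 with proline. The shares of all tested probe sets that rose were 9.88%, 7.56%, 14.4% and 4.6% in that order. The median log2 differences were 0.23, 0.65, 0.43 and 0.16, beside -0.03, -0.16, -0.09 and -0.08 for all tested probe sets. CIT3, a mitochondrial citrate and methylcitrate synthase, rose 2.91-fold with leucine (from 246 ± 57.2 to 711 ± 117, adjusted p = 5.7e-05) and 4.35-fold with phenylalanine (to 1084 ± 337, 3.6e-06), fell 1.79-fold with proline (to 136 ± 16.4, 0.017) and had 269 ± 42.8 with methionine. IDP1, the mitochondrial NADP-dependent isocitrate dehydrogenase, rose 3.58-fold, 3.00-fold and 4.71-fold with leucine, phenylalanine and methionine (adjusted p 1.2e-04, 6.7e-04 and 1.6e-05). Fumarase FUM1 rose with each source, 1.68-fold, 2.03-fold, 1.74-fold and, with proline, 1.49-fold (2.3e-04, 1.75e-05, 9.6e-05 and 0.0059).

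Genes that share metabolites with CIT2 outside mitochondria divided. MLS1, the malate synthase of the glyoxylate cycle, rose 3.99-fold with leucine (from 274 ± 68.5 to 1076 ± 116, adjusted p = 2.0e-07), 5.18-fold with phenylalanine (5.0e-08), 3.44-fold with methionine (6.6e-07) and 1.60-fold with proline (0.013). ICL1, isocitrate lyase of the same cycle, fell 2.66-fold with leucine (from 675 ± 44.9 to 255 ± 28.5, adjusted p = 3.8e-07) and 1.48-fold with phenylalanine (0.0032) but rose 1.53-fold with methionine (0.0010) and 1.36-fold with proline (0.025). MDH2, the cytosolic malate dehydrogenase, fell 3.21-fold, 2.26-fold and 2.68-fold with leucine, phenylalanine and methionine (adjusted p 4.7e-08, 3.9e-06 and 2.7e-07). Of the 6 genes 1 rose and 4 fell with leucine (9.88% and 11% of all tested probe sets), and 1 and 4 with phenylalanine (7.56% and 18.1%). With methionine 2 rose and 4 fell (14.4% and 24.2% of all), and with proline 2 and 0 (4.6% and 8.7%).

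Of the 5 enzymes that join 2-oxoglutarate to glutamate and glutamine, all 5 rose with proline and with methionine, 4 with leucine and 3 with phenylalanine. The shares of all tested probe sets higher than with asparagine were 4.6% with proline, 14.4% with methionine, 9.88% with leucine and 7.56% with phenylalanine. The median log2 differences were 1.19 (proline), 1.16 (methionine), 1.09 (leucine) and 1.08 (phenylalanine). GDH3, a NADP-dependent glutamate dehydrogenase, had 108 ± 11.1 with asparagine and 531 ± 56.0 with proline, and 1169 ± 116, 1429 ± 262 and 1229 ± 102 with leucine, phenylalanine and methionine. Glutamine synthetase GLN1 was 3.50-fold higher with proline and 3.55-fold, 5.10-fold and 4.40-fold higher with leucine, phenylalanine and methionine (adjusted p 7.2e-07, 1.7e-07, 2.0e-08 and 2.5e-08). Glutamate synthase GLT1 was 2.28-fold higher with proline (from 336 ± 51.1 to 765 ± 103, adjusted p = 5.3e-05) and had 432 ± 51.5 with phenylalanine, where it did not pass. The list rose with proline, where CIT2 and DLD3 did not pass.

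Among the HAP genes, subunits of the CCAAT-binding activator of respiratory genes, 0 of 4 passed with leucine against asparagine and 2 rose with phenylalanine. With methionine 3 rose and 1 fell, and with proline 1 fell. The shares of all tested probe sets that rose were 9.88% with leucine, 7.56% with phenylalanine and 14.4% with methionine. Those that fell made up 11% with leucine, 24.2% with methionine and 8.7% with proline. For a list of 4 genes, the 1 fall with methionine was near its share. HAP4, the activating subunit, rose 1.66-fold with phenylalanine (from 438 ± 88.0 to 735 ± 187, adjusted p = 0.014) and 1.54-fold with methionine (0.021). HAP3 rose 1.56-fold and 1.47-fold in the same comparisons (0.0025 and 0.0037). HAP2 fell 2.12-fold with methionine (from 75.4 ± 4.45 to 36.0 ± 7.88, adjusted p = 0.0016) and 1.69-fold with proline (0.040).

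Of 11 carriers and carnitine enzymes, 6 rose and 1 fell with leucine, 4 and 2 with phenylalanine, 3 and 1 with methionine and 0 and 1 with proline against asparagine. Of all tested probe sets 9.88% rose and 11% fell with leucine, 7.56% and 18.1% with phenylalanine, 14.4% and 24.2% with methionine and 4.6% and 8.7% with proline. The falls in the list were near or below that background. The carnitine carrier CRC1 rose 1.87-fold, 1.75-fold and 2.30-fold with leucine, phenylalanine and methionine (adjusted p 9.3e-05, 4.2e-04 and 4.4e-06). The carnitine acetyltransferase YAT1 rose 2.00-fold, 2.44-fold and 3.25-fold (7.3e-04, 1.1e-04 and 3.5e-06). The dicarboxylate carrier DIC1 fell 4.19-fold with methionine (from 2669 ± 245 to 644 ± 130, adjusted p = 4.1e-07), 2.78-fold with proline (8.3e-05) and 1.89-fold with leucine (0.0013).

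Of 3 other lactate dehydrogenase genes none rose with phenylalanine or methionine, where 7.56% and 14.4% of all tested probe sets rose. With leucine 1 rose and 1 fell (9.88% and 11% of all), and with methionine 1 fell (24.2%). A list of 3 genes is too short to be told apart from these shares. DLD2, the closest relative of DLD3, rose 1.36-fold with leucine (from 475 ± 39.4 to 647 ± 60.2, adjusted p = 0.0095) and had 461 ± 36.7 with phenylalanine and 526 ± 33.8 with methionine. DLD1, the mitochondrial D-lactate dehydrogenase, had 1060 ± 126 with asparagine, 972 ± 72.7 with leucine, 783 ± 237 with phenylalanine and 774 ± 32.1 with methionine and passed in none of these comparisons. CYB2, the L-lactate dehydrogenase, fell 1.85-fold with methionine (from 2124 ± 88.4 to 1149 ± 97.3, adjusted p = 1.6e-05) and 1.38-fold with leucine (0.0053).

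**Figure D4:**
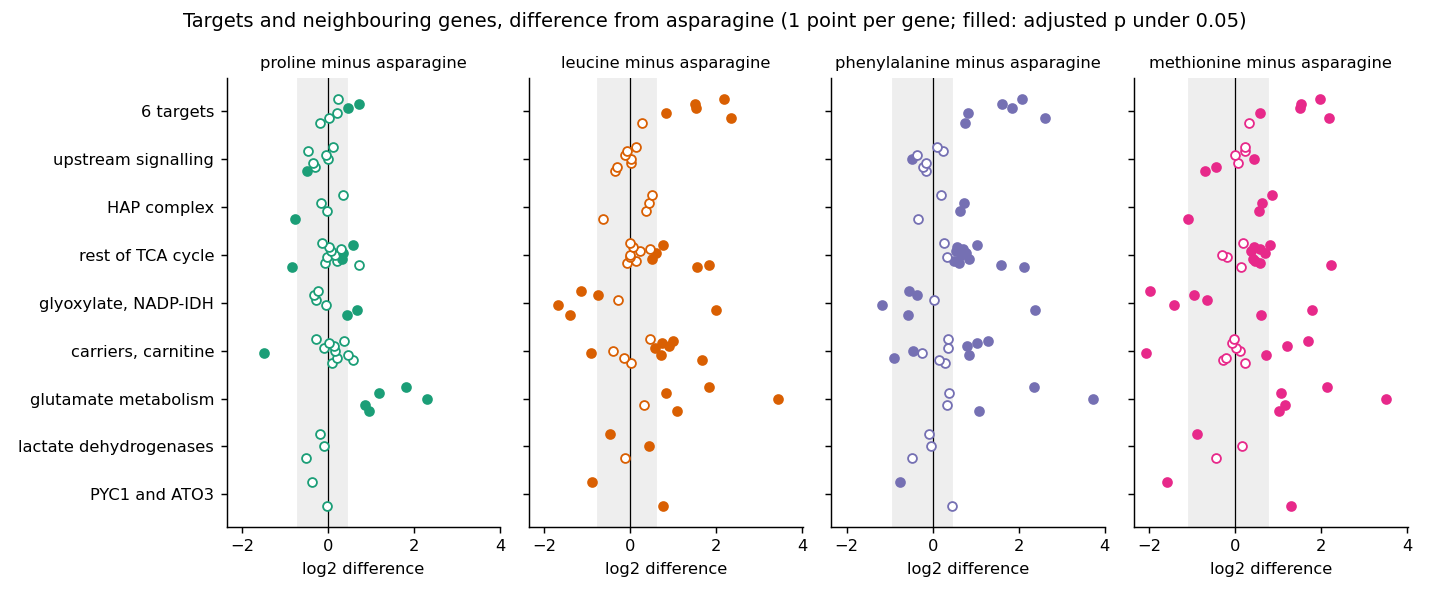
Log2 difference from asparagine (horizontal axes) of the 6 targets and of genes in 8 neighbouring lists, by source, with 1 point per gene. Filled points passed the adjusted p threshold of 0.05, and the grey band spans the 10th to 90th percentile of all tested probe sets. The targets stand to the right with leucine, phenylalanine and methionine, the glutamate enzymes with all 4 sources, and the glyoxylate cycle and NADP isocitrate dehydrogenase genes (NADP-IDH) fall on both sides of 0.

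The genes whose log2 signal over the 15 arrays was most like that of a member, among 5388 genes tested, are given as a description, since arrays of 1 source share its level. CIT2 was most like ARO10 (r = 0.98), which decarboxylates the keto acids left by transamination of phenylalanine and leucine, then DLD3 (0.98), IDH1 (0.96), the mitochondrial acetyl-CoA hydrolase ACH1 (0.96) and MLS1 (0.95). DLD3 was most like CIT2 (0.98), ARO10 (0.96), the transketolase TKL1 (0.95), IDH1 (0.94) and the peptide transporter PTR2 (0.94). IDH1 was most like the sphingolipid hydroxylase SCS7 (0.97), IDH2 (0.97), MLS1 (0.96), CIT2 (0.96) and the transcription factor PHD1 (0.95). Members thus stood among the 5 most like genes of CIT2, DLD3 and IDH1. IDH1 was also among those of IDH2 (0.97) and ACO1 (0.92).

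RTG2 was most like RKM2 (r = 0.82), MUS81 (0.82), RRS1 (0.77), GPD2 (0.77) and RPC10 (0.75), lower values than those of the targets. The most like gene was PDR12 for IDH2 (0.97), AGX1 for CIT1 (0.97), GGA2 for ACO1 (0.95), PMS1 for MKS1 (0.90), APC2 for RTG3 (0.89) and RIM9 for RTG1 (0.88). The 15 pairs of targets correlated at 0.67 (CIT1 with ACO1) to 0.98 (CIT2 with DLD3). RTG3 correlated with the 6 targets at -0.11 (CIT1) to 0.47, RTG2 at -0.33 to 0.13, MKS1 at -0.34 to -0.03 and RTG1 at -0.12 to 0.37. After the mean of each source was removed, RTG3 ran from -0.22 (CIT1) to 0.62 (DLD3) and RTG2 from -0.55 (CIT1) to 0.14 (DLD3). MKS1 then ran from -0.65 (IDH2) to -0.09 (CIT1) and RTG1 from -0.28 (ACO1) to 0.19 (DLD3). Both genes of a pair were read on the same arrays, so these too are descriptions.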

How the data were processed

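The authors deposited, for each array, a linear intensity of every probe set, made with MAS5 per the submitters' processing notes, whose version is not given in the sources used here. Trimmed means of the arrays were nearly equal (150.09 to 150.15). Of 9335 probe sets 60 controls were removed. Of the other 9275, 6504 name 1 gene by the platform annotation, and all of these matched the RefSeq table by gene ID. Before the log2 transform, signals below 2 (the 10th percentile) were set to 2. Tests covered the 7459 probe sets that exceeded, on at least 3 arrays, the 25th percentile of the array. A model with a mean for each source was fitted to all 15 arrays with limma 3.58.1 (R 4.3.3, eBayes with trend), with two-sided tests in all 10 pairs of sources and Benjamini-Hochberg adjustment over all tested probe sets within each comparison. The fit was tested on simulated data. The floor raises the lowest signals, which can understate a fold, while scatter among dim signals can move it either way. For RTG1 the log2 difference of methionine from asparagine fell from 2.05 to 1.20 without the asparagine array at 1.4. Intervals are 95% and not adjusted.

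Whether the triplicates came from separate cultures is not stated, and p-values thus reflect only the spread among these arrays, which may be technical. Of the 30 pairs of arrays with the same replicate number in different groups 11 had deviations that correlated above 0.1. The median correlation of the 30 was 0.015, beside 0.0015 for the 60 pairs with unlike numbers. By the mean over other groups, 5 of 15 arrays correlated best with their own number. No label says that the numbers mark a shared batch, and they were not taken as pairs. The members, lists and tests were chosen with earlier results of these data known. Named were all members, up to 3 genes per list with the smallest F test p (all of a list of under 4) and the 5 genes most like CIT2, DLD3, IDH1 and RTG2, or the 1 most like each other member. Alternatives changed the normalization, floor, filter, variance prior, weights, replicate block, covariates and arrays. The mating type and catabolic genes named beside them were label checks, with none for asparagine or methionine.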

Additional observations from a re-analysis of the deposited data

How the results depend on the processing

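Of 43 calls of members over the 10 pairs of sources 26 were kept in all alternatives, including 0 of the 6 calls of regulators. With the lowest-mean probe set no value changed, since each member has 1 probe set. The median log2 difference of all probe sets with phenylalanine against asparagine moved from -0.16 under quantile normalization to 0.01 and under median centring to 0.15, and with methionine from -0.09 to 0.02 and 0.12. The percentage of calls that were higher moved from 34.6, 29.5 and 37.3 with proline, phenylalanine and methionine against asparagine to 46.7, 51.1 and 48.9 under quantile normalization, to 59.6, 72.6 and 60.4 once medians were centred, and with leucine from 47.2 to 57.4 with median centring. With median centring it moved from 39.2 to 63 and from 47.1 to 57.5 with phenylalanine and methionine against proline, and from 33.6 to 71.7, 37.2 to 59.5 and 57.4 to 44.2 with phenylalanine against leucine, methionine against leucine and methionine against phenylalanine.

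The count of members called with proline against asparagine, 2, was 1 with no variance trend and with the hybridisation control as covariate, and 0 with the actin ratio as covariate. Phenylalanine against leucine, 2, gave 0 with quantile normalization and either covariate, and 1 with no filter, no variance trend or array weights. Methionine against leucine, 1, gave 0 with median centring, the filter at the 50th percentile, the actin ratio and the replicate block, and 2 with the floor at the 25th percentile or array weights. The block changed no other call. Methionine against phenylalanine, 2, gave 1 with median centring, the floor at 1 or the filter at the 50th percentile, and 0 with no filter, no variance trend, array weights or either covariate. Leaving out the 4 arrays with most ribosomal RNA, an alternative added after seeing the data that keeps 1 proline array, gave 3 with leucine and 3 with methionine against proline and 0 with proline against asparagine and in the 3 pairs among leucine, phenylalanine and methionine. The cause was not tested. Leaving out 1 array gave 6 to 9 members in the F test, 1 to 2 with proline, 5 to 6 with leucine, 6 to 6 with phenylalanine and 5 to 9 with methionine against asparagine. It gave 5 to 6, 6 to 6 and 4 to 6 with the last 3 sources against proline, and 0 to 2, 0 to 1 and 0 to 3 in the pairs among them (phenylalanine against leucine, methionine against leucine, methionine against phenylalanine).

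Sign changes touched only differences that had not passed. With quantile normalization IDH2 turned to -0.25, -0.073 and 0.18 in those 3 pairs in that order and CIT1 to -0.088 with methionine against leucine. In phenylalanine against leucine ACO1 turned to 0.23 and DLD3 to 0.12 with median centring, and ACO1 to 0.056 with array weights, 0.047 with the actin ratio and 0.026 without the high ribosomal RNA arrays. In methionine against leucine IDH1 turned to 0.10 with median centring and 0.012 with array weights, and IDH2 to -0.024 with the actin ratio. Without the high ribosomal RNA arrays IDH1 turned to 0.045, CIT1 to -0.048 and CIT2 to 0.0079. In methionine against phenylalanine IDH2 turned to 0.022 with array weights and 0.00025 with the hybridisation control, and DLD3 to 0.063 with that control and 0.0066 without the high ribosomal RNA arrays. CIT1 turned to 0.052 with proline against asparagine with the hybridisation control. Without 1 array CIT2 with proline against asparagine ran from -0.10 to 0.11, and in phenylalanine against leucine ACO1 ran from -0.12 to 0.18, IDH2 from -0.039 to 0.18 and DLD3 from -0.24 to 0.046. In methionine against leucine CIT1 ran from -0.0089 to 0.17, IDH1 from -0.084 to 0.021 and IDH2 from -0.036 to 0.10, and in methionine against phenylalanine IDH2 ran from -0.15 to 0.072 and DLD3 from -0.20 to 0.030.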
